A study of Lentinus tigrinus with 27 samples.

Results

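The gene models of Lentinus tigrinus include 645 whose length was 360 bases or less. Of these, 161 had a mean TPM of at least 20 over the 3 libraries of at least 1 of 9 groups, and these 161 short models, of 15581 gene models in all, are described here. TPM is the read count per base of a gene model, scaled to the same total in every library. The 161 models were set against the 8374 longer models that passed the same TPM limit. Because the group means of TPM chose the 161 models, the level and the group in which each was highest are given as descriptions, with no test. Tests between groups were counted only for models that also reached 20 TPM in a group outside the comparison.

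Lentinus tigrinus is a wood-decay mushroom whose fruiting body has a cap on a stipe and gills, called lamellae, under the cap. RNA sequencing of polyA RNA from strain RLP-9953-sp gave 27 libraries, 3 for each of 9 groups taken along development. Stage 1 primordia (P1) were white and stalk-like, 5 to 20 mm tall, and had no cap initial yet. Stage 2 primordia, at 15 to 25 mm, bore a brown cap initial and were split into P2_cap and P2_stipe. Young fruiting bodies stood 30 to 40 mm tall under a cap of up to 5 mm in width, and gave the groups YFB_cap and YFB_stipe. Mature fruiting bodies measured 50 to 70 mm, had a flattened cap and gave FB_lamellae, FB_cap and FB_stipe. Fruiting cultures grew on aspen sawdust with wheat bran for 21 days in the dark at 30 °C and then at 25 °C with 12 h of light per day. Vegetative mycelium (VM) of the same strain is the growth phase that precedes fruiting, and the medium from which it was harvested is not given in the sources used here. Every group is a bulk tissue sample of 1 strain, so a fall in the number of cells of a type and a fall in RNA per cell cannot be told apart.

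In fungi, short genes encode several kinds of protein. Hydrophobins are small secreted proteins that coat hyphae and let them grow into air, and other small secreted proteins act at the cell surface or on the substrate. Many ribosomal proteins and small subunits of mitochondrial complexes are also short and are transcribed in every tissue. A short model can also be an incomplete prediction of a longer gene. None of the identifiers could be paired with a gene name (0 matches to the 15665 genes of the RefSeq table, which belongs to assembly Lenti7_1), so no model is assigned to any of these classes, no tissue label could be checked against marker genes, and no sequence is shown. Identifiers are printed as in the deposited tables with the sign _ in place of a bar.

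The libraries held 10.84 to 31.82 M reads assigned to genes and came from 6 flowcells. On the first principal component of the 161 models, which held 35.0% of the variance, the VM libraries lay between 10.7 and 13.4, the FB_cap libraries between 4.52 and 11.5 and the FB_lamellae libraries between 4.22 and 16.3. The remaining 18 libraries lay between -12.4 and 1.59. FB_cap replicate 2 and FB_lamellae replicate 1 were the most distant of their groups from those libraries, and FB_stipe replicate 4, at -12.4, stood at the other end, against -8.49 and -2.28 for FB_stipe replicates 3 and 2. Results that rest on these libraries are given below with and without them. FB_cap replicate 2 and FB_lamellae replicate 1 shared a flowcell with VM replicates 1 and 2 and with no other library. Their nearness to VM on this component and their flowcell cannot be told apart.

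Short models passed the TPM limit less often than longer ones, with 25.0% of the short models against 56.1% of the longer models. No read was assigned to 235 of the 645 short models in any library, and the 484 short models under the limit had a median of 1 read over all 27 libraries. The 161 over the limit were 150 to 357 bases long with a median of 288 bases, against 363 to 12061 bases and a median of 1442 bases for the longer models. Their length was a multiple of 3 in 148 models (91.9%), against 85.3% of the 484 short models under the limit and 52.9% of the longer models. All 161 passed the filter on low counts. Their total over the 27 libraries had a median of 9009 reads and a minimum of 522 reads, against a median of 26040 reads for the longer models. In 4 short models, Lenti6_1_570659, Lenti6_1_612912, Lenti6_1_643821 and Lenti6_1_513931, under 90% of the reads mapped uniquely (70.9%, 74.4%, 42.0% and 34.3%), so their values may be shared with near-identical copies. At the TPM limit, Lenti6_1_510043 with a highest group mean of 20.1 TPM was just inside and Lenti6_1_513353 with 19.98 TPM was just outside.

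By mean TPM, the short models were highest most often in the cap of stage 2 primordia, by a narrow lead of 36 over 34 models in mycelium. The longer models were highest most often in mycelium and young cap. With a TPM limit of 10, VM led with 46 short models, against 44 in P2_cap, and with a length limit of 450 bases with 77, against 65. With a TPM limit of 50, P2_cap led with 33, against 24 in VM, and with a length limit of 300 bases with 27, against 14. P2_cap held the highest mean of 36 of the 161 short models (22.4%, exact binomial 95% interval 16.2 to 29.6%), against 10.5% of the longer models. VM was highest for 34 short models (21.1%, 15.1 to 28.2%) and for 30.0% of the longer models. YFB_cap was highest for 25 short models (15.5%, 10.3 to 22.1%) and for 26.6% of the longer models. Short models thus had a larger share than longer ones in the early cap and smaller shares in mycelium and young cap, as a description of these libraries.

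The mature fruiting body held the highest mean of 45 short models (28.0%, against 23.5% of longer models). Of these, 17 were highest in FB_lamellae (10.6%, against 15.3%), 16 in FB_stipe (9.94%, against 4.29%) and 12 in FB_cap (7.45%, against 3.92%). By medians of libraries in place of means, FB_cap held 2.47% of short models, against 3.44% of longer models. P1 was highest for 14 short models (8.70%, against 5.79%), YFB_stipe for 6 (3.73%, against 2.10%) and P2_stipe for 1 (0.621%, against 1.42%). Summed over stages, caps were highest for 73 short models (45.3%, against 41.1%) and stipes for 23 (14.3%, against 7.81%). The intervals given cover counting error only, and library spread is not in them.

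The order of the groups also depended on how libraries were scaled. TPM fixes the sum of each library, whereas the trimmed mean of M values (TMM) sets libraries level over most genes. With TMM-scaled counts per library size (CPM), FB_stipe became the most frequent highest group of the short models, with 38 of 161 (23.6%, against 16.3% of longer models), and P2_cap held 25 (15.5%, against 9.35%). Group means of the authors' own log2 matrix gave 40 short models for FB_stipe (24.8%, against 16.4%) and 25 for P2_cap (15.5%, against 9.70%). Under all 3 scalings the short models exceeded the longer ones in P2_cap and FB_stipe and fell short of them in VM, with 16.8% against 21.0% under TMM. In YFB_cap the TMM shares were 11.2% of short and 18.3% of longer models.

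Single libraries also moved these shares. Without YFB_cap replicate 1 the share of short models highest in P2_cap was 16.8% and that in YFB_cap 23.0%, and without YFB_cap replicate 3 they were 28.0% and 9.94%. Without VM replicate 3 the VM share was 28.7%, above that of P2_cap at 21.3%. Without FB_stipe replicate 4 the FB_stipe share was 6.83%, against 4.88% of longer models. Without FB_cap replicate 2 and FB_lamellae replicate 1, FB_cap held 6.13%, P2_cap 23.3% and FB_lamellae 18 of the 163 short models then over the limit.

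**Figure D1:**
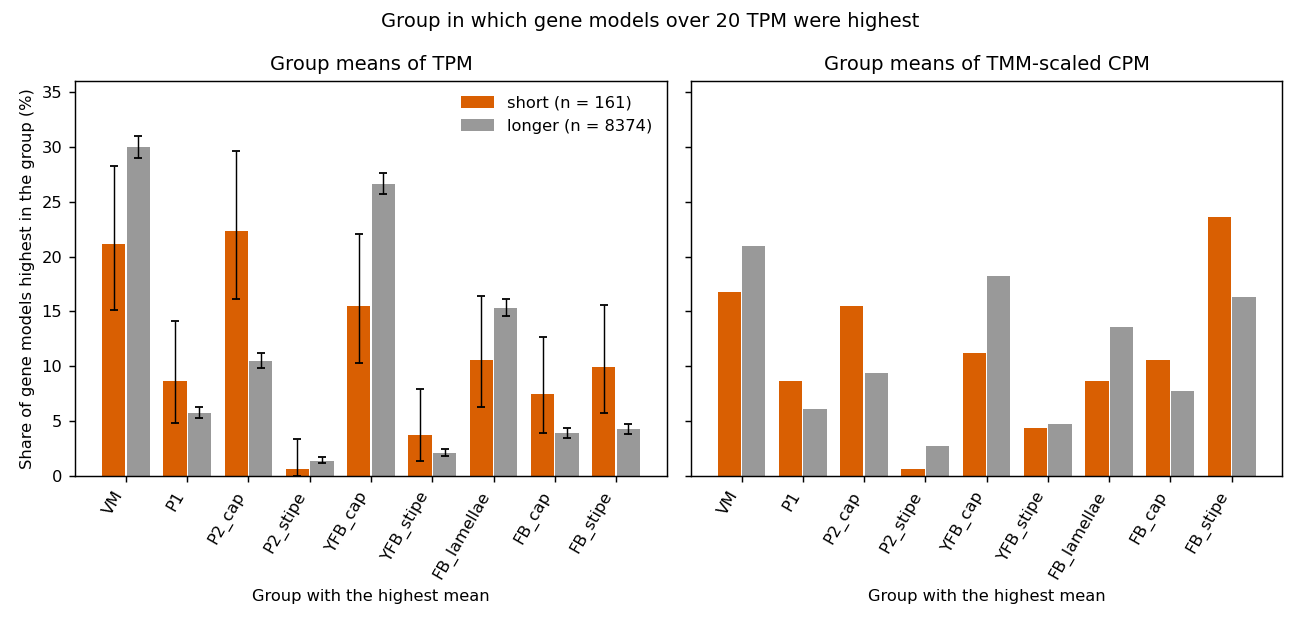
Share of the 161 short and 8374 longer gene models (%) whose mean was highest in each of the 9 groups, by TPM (left, bars with exact binomial 95% intervals) and by TMM-scaled CPM (right). P2_cap leads for the short models by TPM with 22.4%, and FB_stipe leads by TMM-scaled counts with 23.6%.

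Most highest groups were highest by a small margin. The highest mean exceeded the second by a median of 1.18 times for the 36 models highest in P2_cap, and 33 of them had a margin under 1.5 times. For the 25 models highest in YFB_cap the median margin was 1.11 times, with 23 under 1.5 times, and for the 16 in FB_stipe it was 1.19 times, with 13 under 1.5 times. Margins were wider in VM, with a median of 1.51 times and 6 of 34 models at 2 times or more. They were also wider in FB_lamellae, with a median of 1.64 times and 7 of 17 models at 2 times or more. By group means, the lamellae were thus the group with the largest share of its short models at 2 times or more over every other group. Single libraries carried some of these means, with 8730, 278 and 384 reads of Lenti6_1_511493 and 2562, 6429 and 0 reads of Lenti6_1_612912 in FB_lamellae. Only 2 of the 17 models had all 3 lamellae libraries above every other library, Lenti6_1_609252 (margin 3.47 times) and Lenti6_1_607680 (1.70 times).

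Only 13 of the 161 short models (8.07%, against 12.9% of longer models) had their 3 highest libraries all in 1 group. VM held 4 of them, P2_cap and YFB_cap 3 each, FB_lamellae 2 and FB_stipe 1. The widest was Lenti6_1_612516, with 952, 639 and 3098 TPM in VM and at most 81.1 TPM in any other library. Lenti6_1_608774 was over the limit in VM alone, with a mean of 42.9 TPM there and 3.31 TPM in YFB_stipe, the next group. In lamellae, Lenti6_1_609252 had 731, 1341 and 1718 TPM, against 78.9, 444 and 568 TPM in FB_cap. In the early cap, Lenti6_1_514471 had 416, 591 and 583 TPM, against 369, 260 and 349 TPM in FB_stipe, its second group. In mycelium, lamellae and early cap, a few short models were thus higher in each of the 3 libraries than in any library of another group.

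Expression was broad for most of the short models. The limit of 20 TPM was reached in all 9 groups by 100 of them (62.1%, against 57.6% of longer models) and in a single group by 8 (4.97%, against 838 of the 8374 longer models). Of the 100 broad models, 31 were highest in P2_cap, 19 in YFB_cap, 18 in VM, 10 each in FB_stipe and FB_lamellae, 6 in P1, 4 in FB_cap and 2 in YFB_stipe. Among broad longer models, P2_cap was highest for 11.3%, YFB_cap for 31.8% and VM for 23.6%. The excess in the early cap therefore lay among broadly expressed short models, which differed little between groups, with a median ratio of highest to lowest group mean of 2.46, against 2.22 for broad longer models. The 23 short models over the limit in 1 to 3 groups had a median ratio of 7.90, against 5.38 for such longer models. They were highest most often in VM, with 7 models (30.4%, against 47.9% of such longer models), and FB_cap, with 5 (21.7%, against 3.66%). Single libraries carried most of these FB_cap means. Reads in FB_cap replicates 1, 2 and 3 were 21, 0 and 1712 for Lenti6_1_607046 and 3, 5 and 1675 for Lenti6_1_616241. They were 22, 21 and 276 for Lenti6_1_507963, 32, 161 and 60 for Lenti6_1_513931, and 422, 230 and 1157 for Lenti6_1_608627.

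Over all 161 short models, the median ratio of highest to lowest group mean was 3.37, with quartiles of 2.19 and 7.88, against 2.69 with quartiles of 1.99 and 5.03 in longer models. A ratio of 10 or more was seen in 31 short models (19.3%, against 12.6%) and a ratio under 2 in 27 (16.8%, against 25.5%). Levels were also high, with a median highest group mean of 177 TPM, against 73.3 TPM in longer models. The deposited TPM divides by the full model length with no correction for fragment length, so levels of short and longer models may not be on the same scale, and the size of this effect was not tested. A highest group mean of 1000 TPM or more was reached by 24 short models (14.9%), against 205 longer ones (2.45%). The lowest mean of a short model lay in VM for 33 models (20.5%, against 14.7% of longer models), in YFB_stipe for 30 and in FB_stipe for 24 (14.9%, against 30.0%). All of the 16 models highest in FB_stipe except 5 were lowest in VM.

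Replicates spread more among short than longer models. The median SD of log2(TPM + 1) over the models above the limit in a group was 0.287 in P2_cap, 0.298 in YFB_cap and 0.309 in FB_stipe, against 0.193, 0.204 and 0.263 for longer models. The widest medians of short models were 0.485 in VM, 0.463 in FB_lamellae and 0.462 in FB_cap, against 0.369, 0.430 and 0.382 for longer models.

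**Figure D2:**
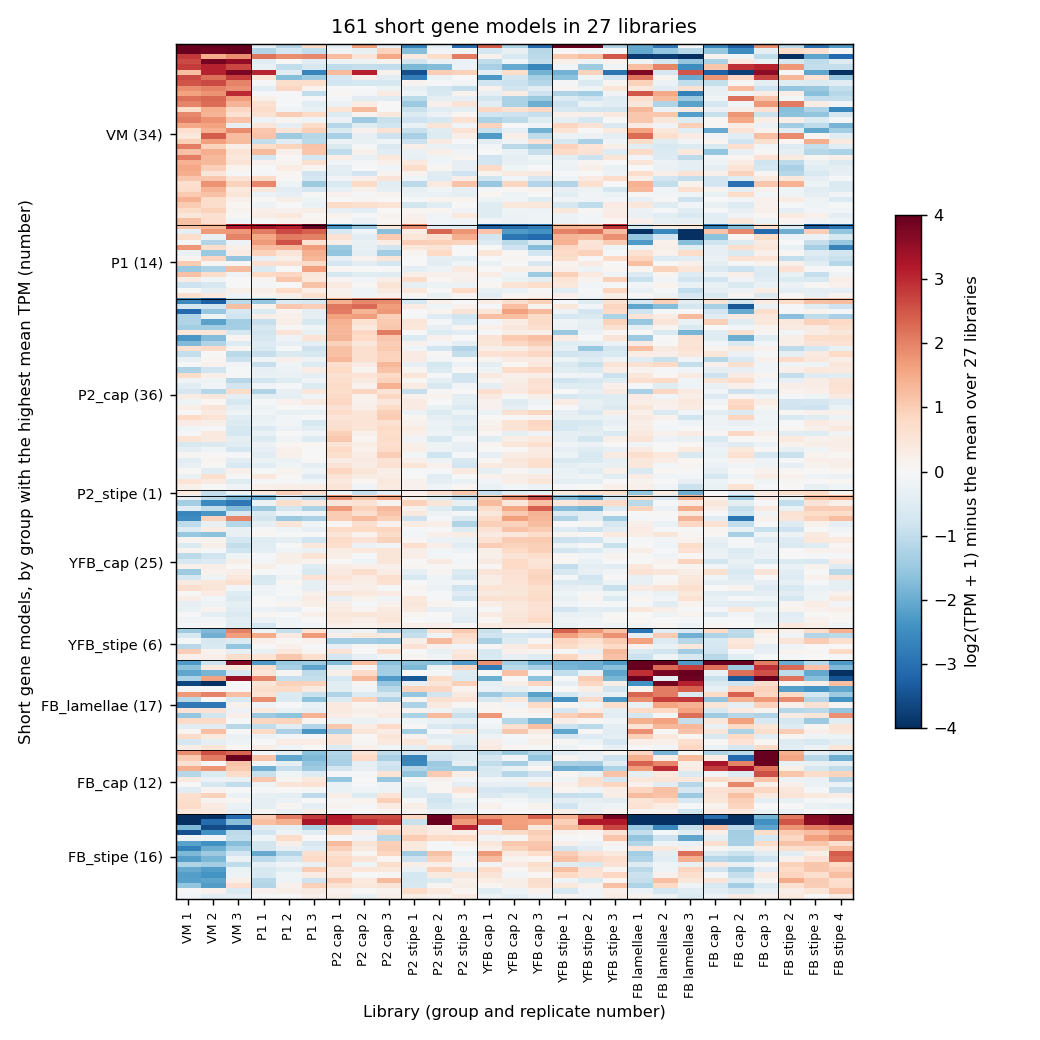
Levels of the 161 short gene models in the 27 libraries, as log2(TPM + 1) minus the mean over libraries (colour), with models as rows grouped by the group of their highest mean TPM and libraries as columns. The blocks for VM (34 models) and FB_lamellae (17 models) show the clearest contrast, and those for P2_cap (36) and YFB_cap (25) share high values with neighbouring caps.

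The most abundant short models of each group give the range of patterns. Lenti6_1_561202, 339 bases long, had the highest mean of any short model in VM, P1, P2_cap, P2_stipe, YFB_stipe and FB_cap. It had 28003, 11058 and 14074 TPM in VM libraries and 17345, 14368 and 14889 TPM in P1 libraries. It had 456, 245 and 908 TPM in FB_stipe replicates 4, 2 and 3 and 273, 283 and 241 TPM in FB_lamellae. Every P1, VM and YFB_stipe library lay above every library of the mature stipe and lamellae.

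Lenti6_1_615060 and Lenti6_1_615061, both 348 bases long with adjacent identifiers, were high in the mature stipe and low in mycelium, lamellae and mature cap. Lenti6_1_615060 had 28011, 3443 and 10130 TPM in FB_stipe replicates 4, 2 and 3, and 8.43, 39.6 and 90.8 TPM in VM. In FB_lamellae it had 5.65, 3.45 and 31.4 TPM. Lenti6_1_615061 had 15584, 3469 and 7348 TPM in the same FB_stipe libraries, 13.8, 71.7 and 186 TPM in VM, and 4.35, 2.76 and 26.5 TPM in FB_lamellae. Both models were above 300 TPM in every P1, P2, YFB and FB_stipe library and below 220 TPM in every VM, FB_cap and FB_lamellae library.

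Other abundant short models had narrower ranges. Lenti6_1_652745, 189 bases long, had 4414, 2666 and 3730 TPM in P2_cap and between 1427 and 4045 TPM in the other 24 libraries. Lenti6_1_607415 had 908, 1383 and 1713 TPM in YFB_cap and 1364, 1042 and 1470 TPM in P2_cap, and its lowest values were 108, 133 and 427 TPM in VM. The steadiest of the broad models, Lenti6_1_493962, ranged from 63.7 to 142 TPM over the 27 libraries, with a ratio of highest to lowest group mean of 1.26. Every VM library of Lenti6_1_607415 lay below every P2_cap and YFB_cap library, and every FB_stipe library of Lenti6_1_652745 lay below every P2_cap library.

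In the mature cap, Lenti6_1_494726 had 1043, 1130 and 1230 TPM in FB_cap, against 937, 660 and 365 TPM in FB_stipe replicates 2, 3 and 4. FB_lamellae, its second group by a margin of 1.05 times, had 1261, 1549 and 432 TPM. Lenti6_1_611231 had 431, 630 and 284 TPM in FB_cap and 197, 480 and 76.3 TPM in FB_lamellae, whereas no library of P1, P2_cap, P2_stipe, YFB_cap, YFB_stipe or FB_stipe exceeded 73.1 TPM. In lamellae, Lenti6_1_606686 had 7827, 2271 and 4886 TPM, with libraries of VM and FB_stipe inside that range. In YFB_stipe, Lenti6_1_583699 had 3242, 2138 and 1449 TPM, and VM replicate 3 with 2525 TPM lay among them. Of these 4 models, the library ranges of the leading group were exceeded or entered by other groups in all 4.

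**Figure D3:**
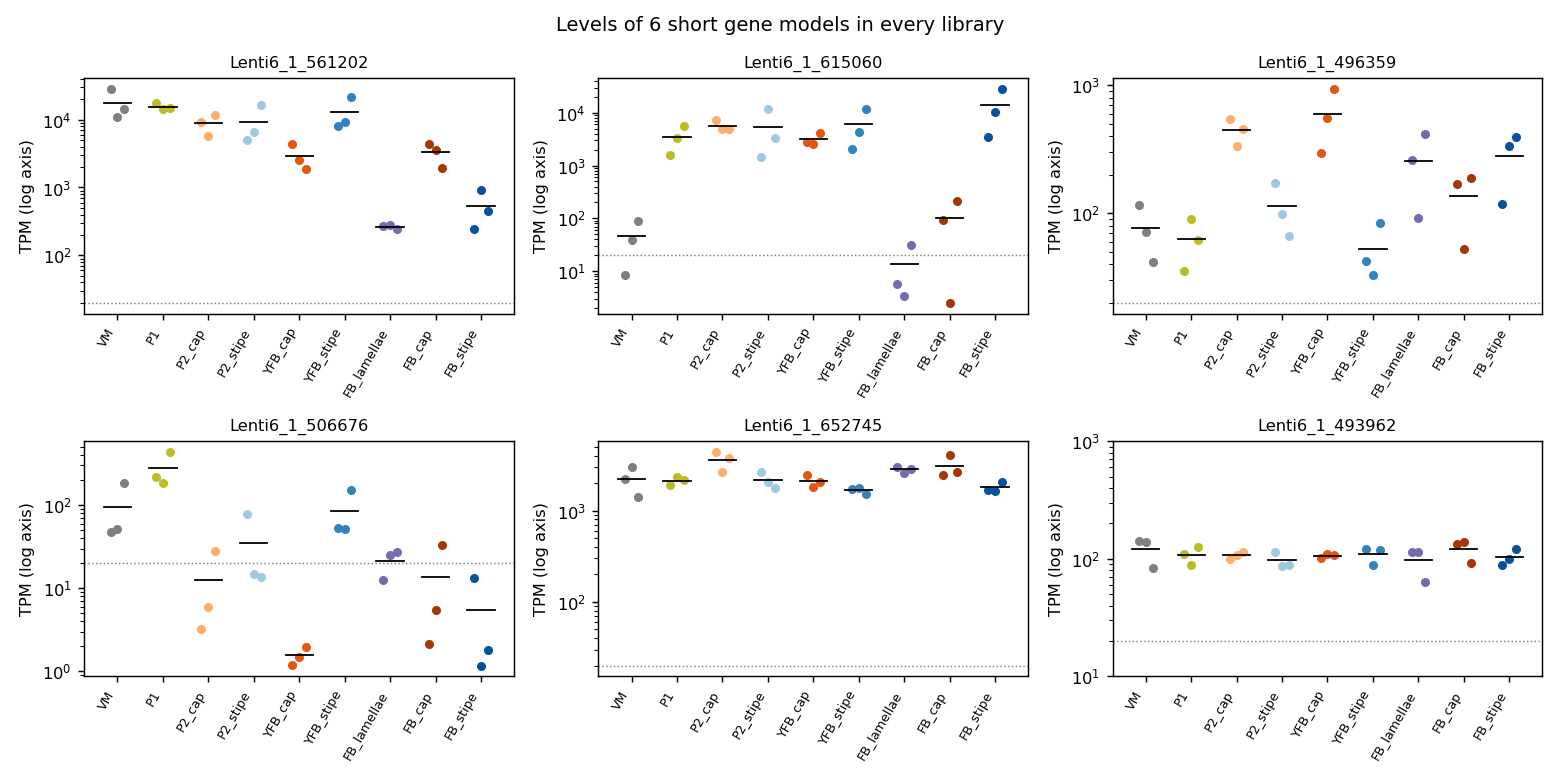
TPM (log axis) of 6 short gene models in every library (points) of the 9 groups, with the group mean as a bar and the limit of 20 TPM as a dotted line. Lenti6_1_561202 is low in FB_stipe and FB_lamellae, Lenti6_1_615060 is low in VM, FB_cap and FB_lamellae, and Lenti6_1_493962 stays between 63.7 and 142 TPM.

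Among all models over the TPM limit, the share highest in P2_cap was larger in short than in long length classes, though not at every step. It was 34.0% for 150 to 240 bases, 22.9% for 241 to 300 bases and 13.6% for 301 to 360 bases. For longer models it was 17.5% at 361 to 600 bases, 14.7% at 601 to 1200 bases, 9.53% at 1201 to 2400 bases and 2.92% above 2400 bases. The share highest in YFB_cap was 12.8% in the shortest class and 42.5% in the longest. The share highest in FB_stipe was 10.6% in the shortest class and 1.78% in the longest. The share in the early cap therefore varied with length among longer models too.

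Single libraries were also skewed by length. The level of the 100 broad short models was compared with that of 940 broad models above 2400 bases, as the difference of their median log2 deviation from the mean over libraries. This difference was 0.59, -0.03 and 0.57 in P2_cap replicates 1, 2 and 3, and 0.45, 0.35 and 0.11 in FB_stipe replicates 4, 2 and 3. In P1 it was -0.13, -0.14 and -0.19, in VM -0.13, -0.06 and -0.28, and in YFB_cap -0.32, -0.02 and -0.03. Replicates of 1 group thus differed among themselves, as they also did in YFB_stipe, where the values were -0.20, -0.16 and 0.42. The part of such a skew in the shares highest in P2_cap and FB_stipe was not tested. The share of short models highest in P2_cap was 22.6% without P2_cap replicate 1, 28.4% without replicate 2 and 19.9% without replicate 3.

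**Figure D4:**
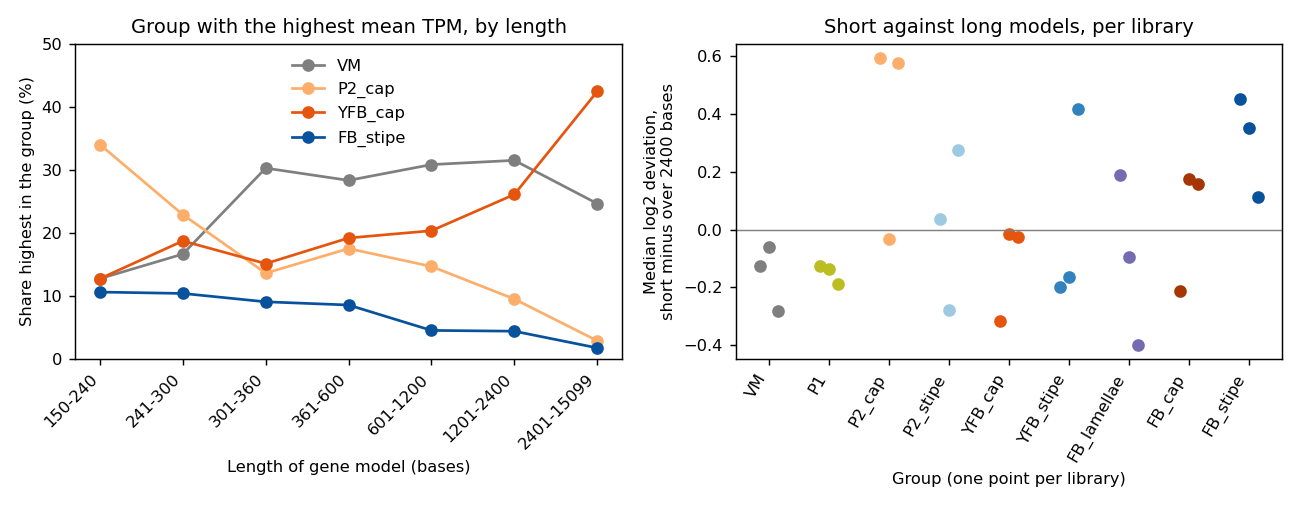
Share of models over 20 TPM that were highest in VM, P2_cap, YFB_cap or FB_stipe, by length class in bases (left), and the difference in median log2 deviation between 100 broad short models and 940 broad models over 2400 bases in each library (right, 1 point per library). The P2_cap share is 34.0% in the shortest class and 2.92% in the longest, and P2_cap replicates 1 and 3 and FB_stipe replicate 4 lie highest on the right.

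The 161 short models held between 3.85 and 8.49% of all TPM of a library and between 0.789 and 2.37% of its reads. In P2_cap they held 6.55, 5.43 and 6.47% of TPM, and in YFB_cap 4.31, 4.84 and 4.92%. In FB_cap they held 3.85, 4.07 and 4.25%, the lowest mean of the 9 groups at 4.06%. FB_stipe held 8.49, 4.79 and 5.62% in replicates 4, 2 and 3. In FB_stipe replicate 4, the 61 models that were not over the limit in all 9 groups held 4.47% of TPM, and among them Lenti6_1_615060 had 28011 TPM and Lenti6_1_615061 15584 TPM. All 645 short models together held 3.89 to 8.53%, so the models under the limit added almost nothing.

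**Figure D5:**
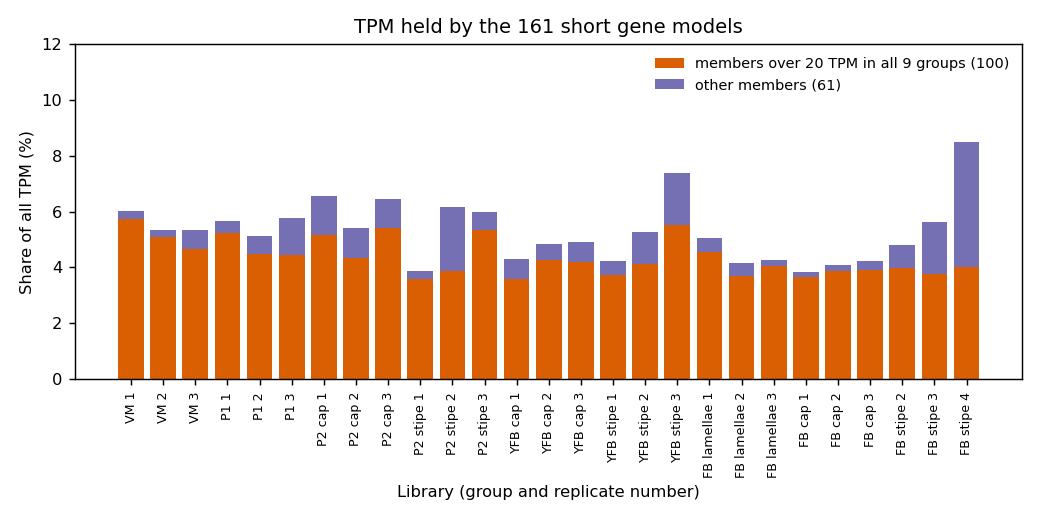
Share of all TPM (%) held by the 161 short models in each of the 27 libraries, split into the 100 models over 20 TPM in all 9 groups and the other 61. FB_stipe replicate 4 is highest with 8.49%, mostly from the 61 other models, and FB_cap replicate 1 is lowest with 3.85%.

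Differences between groups were tested with edgeR's quasi-likelihood method on the counts of all 13569 genes that passed the filter on low counts. Calls needed a Benjamini-Hochberg adjusted p under 0.05 together with a change of 2-fold or more, and 81 of the 161 short models were called in at least 1 of 8 comparisons (50.3%), against 45.1% of all genes tested and 42.4% of longer models over the TPM limit, a difference that was not tested. Fold changes are log2 with an approximate standard error (SE), and n is 3 libraries per group, with the FB_stipe libraries given in the order of replicates 4, 2 and 3. The SE is the absolute log2 fold change divided by the square root of the F statistic of its test, and was not estimated directly. Several comparisons share a group and are not independent of each other. The models named per comparison were picked from called short models whose libraries of the 2 groups did not overlap in TMM-scaled CPM. Non-overlap in them was thus fixed by the choice and adds no support to a call. FB_stipe replicate 4 was the only library of its flowcell and the only one numbered 4, so a fit with flowcell as a covariate, or with the replicate number as a block, takes nothing about FB_stipe from it and rests on replicates 2 and 3.

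At the step from mycelium to primordium, P1 against VM, 18 of 156 short models tested were higher in P1 (11.5%) and 9 were lower (5.77%), and 9 of the 27 passed 4-fold. Of all genes tested, 15% were called, 6.91% higher and 8.08% lower, so the total of 17.3% of short models was near that of all genes. The median log2 fold change was 0.19 for the short models and 0.03 for all genes. All genes were not held to the TPM limit. Longer models counted by the same rule as the short ones had 7.98% higher and 5.96% lower, with a median of 0.08. The abundant pair Lenti6_1_615060 and Lenti6_1_615061 rose in the primordium. Lenti6_1_615060 had 1602, 3311 and 5499 TPM in P1, against 8.43, 39.6 and 90.8 TPM in VM (log2 fold change 6.37 ± 1.33, edgeR adjusted p = 0.0018). Lenti6_1_615061 had 1390, 1623 and 5810 TPM in P1, against 13.8, 71.7 and 186 TPM in VM (5.18 ± 1.33, edgeR adjusted p = 0.0088).

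The deepest falls were those of models that were high in mycelium. Lenti6_1_612516 had 18.6, 26.0 and 21.1 TPM in P1, against 952, 639 and 3098 TPM in VM (-5.99 ± 0.68, edgeR adjusted p = 5.0e-06). Lenti6_1_512854 had 6.88, 3.37 and 16.2 TPM in P1, against 150, 201 and 1230 TPM in VM (-5.76 ± 1.78, edgeR adjusted p = 0.026). The groups did not overlap in any of these 4 models, which the choice of named models required. The other 5 short models reached the limit in P1 or VM alone and were not tested, with means of 2.39 to 18.5 TPM in P1, against 28.2 to 42.9 TPM in VM. The call of Lenti6_1_512854 was lost without any 1 of the P1 libraries or without VM replicate 3, where its log2 fold change was -4.04, and the count of called short models was 17 without P1 replicate 3, 16 without VM replicate 1 and 16 with flowcell as a covariate, where Lenti6_1_615061 was no longer called (3.81, adjusted p = 0.056), Lenti6_1_615060 stood at 5.02, Lenti6_1_612516 at -6.58 and Lenti6_1_512854 at -7.42. Without VM replicate 3 the log2 fold changes were 7.41 for Lenti6_1_615060, 6.35 for Lenti6_1_615061 and -4.89 for Lenti6_1_612516, and without P1 replicate 3 they were 4.21 for Lenti6_1_615061 and -6.53 for Lenti6_1_512854.

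When the cap initial appeared, P2_cap against P1, 19 of 159 short models were higher in P2_cap (11.9%) and 15 were lower (9.43%), and 8 of the 34 passed 4-fold. Over all genes 14% were called, 5.23% higher and 8.81% lower. The short models were thus called in 21.4% of cases, against 13.6% of longer models, with the excess among those higher in P2_cap, and the difference between short and longer models was not tested. The median log2 fold change was 0.19 for the short models, 0.04 for the longer models and -0.06 for all genes. Of the longer models, 6.09% were higher and 7.51% lower. The skew by length given above was 0.59, -0.03 and 0.57 in the P2_cap libraries, against -0.13, -0.14 and -0.19 in the P1 libraries, and its part in this count was not tested.

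Lenti6_1_496359, 288 bases long, had 544, 338 and 454 TPM in P2_cap, against 35.8, 90.2 and 61.7 TPM in P1 (2.76 ± 0.61, edgeR adjusted p = 0.0039). Lenti6_1_514471 had 416, 591 and 583 TPM in P2_cap, against 52.9, 104 and 96.3 TPM in P1 (2.55 ± 0.53, edgeR adjusted p = 0.0027). Both rose several times over. Lenti6_1_506676, 201 bases long, had 3.22, 6.01 and 28.0 TPM in P2_cap, against 217, 183 and 438 TPM in P1 (-4.68 ± 1.04, edgeR adjusted p = 0.0041). Lenti6_1_606090 had 387, 534 and 182 TPM in P2_cap, against 2420, 3617 and 3055 TPM in P1 (-3.16 ± 1.06, edgeR adjusted p = 0.040). These 2 models were the deepest falls, again with no overlap. The 2 models over the limit in these groups alone, Lenti6_1_583698 and Lenti6_1_609505, had means of 52.3 and 27.5 TPM in P2_cap, against 21.7 and 8.76 TPM in P1, with no test. The call of Lenti6_1_606090 was lost without any 1 of the 6 libraries and after adding flowcell to the fit, the fold change of Lenti6_1_506676 was -6.06 without P2_cap replicate 3 and -5.37 after adding flowcell, and the count of called short models was 19 without P1 replicate 1, 17 without P2_cap replicate 1 and 18 without P2_cap replicate 3.

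Within stage 2 primordia few short models were called between cap and stipe. In P2_cap against P2_stipe, 3 of 160 short models were higher in P2_cap (1.88%) and 5 were lower (3.13%), with 1 of the 8 past 4-fold. Over all genes 7.78% were called, 3.34% higher and 4.44% lower, and the short models had a smaller share, 5%, a difference that was not tested. Short models had a median log2 fold change of 0.07, and all genes one of -0.02. Longer models counted by the same rule had 3.41% higher and 4.85% lower, with a median of -0.01.

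Lenti6_1_220606 had 46.0, 48.3 and 28.9 TPM in P2_cap, against 13.9, 9.83 and 7.94 TPM in P2_stipe (1.72 ± 0.33, edgeR adjusted p = 0.0024). Lenti6_1_514471, the early cap model described above, had 416, 591 and 583 TPM in P2_cap, against 95.4, 179 and 149 TPM in P2_stipe (1.62 ± 0.52, edgeR adjusted p = 0.047). Both were higher in every cap library than in any stipe library, as the choice of named models required. Lenti6_1_608663 had 12.98, 12.97 and 12.5 TPM in P2_cap, against 43.4, 88.9 and 55.5 TPM in P2_stipe (-2.55 ± 0.52, edgeR adjusted p = 0.0032). Lenti6_1_480119 had 5.51, 14.0 and 6.41 TPM in P2_cap, against 20.1, 32.8 and 18.1 TPM in P2_stipe (-1.71 ± 0.46, edgeR adjusted p = 0.021). In these 2 models every cap library lay below every stipe library, again by the choice. Lenti6_1_609505 was over the limit in P2_cap alone, with a mean of 27.5 TPM there, against 7.27 TPM in P2_stipe, and was not tested. The call of Lenti6_1_514471 was lost without any 1 of the 6 libraries and that of Lenti6_1_480119 without P2_cap replicate 1, P2_cap replicate 3 or P2_stipe replicate 2, and the count of called short models was 3 without P2_cap replicate 1, P2_cap replicate 3 or P2_stipe replicate 2, and 5 without P2_stipe replicate 1 or 3. It was 19 with the spread taken from the 6 libraries alone and 15 with DESeq2.

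In young fruiting bodies, YFB_cap against YFB_stipe, 9 of 161 short models were higher in YFB_cap (5.59%) and 16 were lower (9.94%), and 8 of the 25 passed 4-fold. Over all genes 18.4% were called, 6.85% higher and 11.6% lower, so the shares of short models lay near or under the background. The median log2 fold change was -0.06 for the short models and -0.08 for all genes. Against longer models counted by the same rule, with 8.75% higher, 9.32% lower and a median of 0.10, the short models had the lower median. That difference was not tested.

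Lenti6_1_496359 was again on the side of the cap, with 296, 560 and 933 TPM in YFB_cap, against 42.1, 32.8 and 84.2 TPM in YFB_stipe (3.16 ± 0.62, edgeR adjusted p = 0.0014). Lenti6_1_506775, 285 bases long, had 601, 1058 and 1898 TPM in YFB_cap, against 109, 98.6 and 244 TPM in YFB_stipe (2.65 ± 0.52, edgeR adjusted p = 0.0014). Lenti6_1_506676 and Lenti6_1_617012 were on the side of the stipe. Lenti6_1_506676 had 1.19, 1.49 and 1.98 TPM in YFB_cap, against 53.0, 50.9 and 154 TPM in YFB_stipe (-6.07 ± 1.20, edgeR adjusted p = 0.0015). Lenti6_1_617012 had 70.1, 15.1 and 12.9 TPM in YFB_cap, against 307, 287 and 429 TPM in YFB_stipe (-3.74 ± 0.85, edgeR adjusted p = 0.0035). The groups did not overlap in these 4 models, which their choice required. Without YFB_cap replicate 3 the count of called short models was 13, and without YFB_stipe replicate 3 the log2 fold changes were 3.76 for Lenti6_1_496359, 3.27 for Lenti6_1_506775 and -5.25 for Lenti6_1_506676. Without YFB_cap replicate 1 that of Lenti6_1_617012 was -4.90.

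In mature fruiting bodies, FB_cap against FB_stipe, 13 of 160 short models were higher in FB_cap (8.13%) and 13 were lower (8.13%), and 12 of the 26 passed 4-fold. Over all genes 12.5% were called, 8.88% higher and 3.63% lower. Longer models counted by the same rule had 9.34% higher and 4.13% lower. Short models were thus lower in the mature cap at a larger share than all genes and longer models, a difference that was not tested. The median log2 fold change was -0.21 for the short models, -0.04 for the longer models and 0.04 for all genes. The skew by length was -0.21, 0.18 and 0.16 in the FB_cap libraries, against 0.45, 0.35 and 0.11 in FB_stipe replicates 4, 2 and 3, and its part in the count was not tested. The FB_cap and FB_stipe libraries shared no flowcell, so tissue and flowcell cannot be told apart from these libraries alone.

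The abundant pair Lenti6_1_615060 and Lenti6_1_615061 made the deepest falls. Neither was called between cap and stipe of stage 2 primordia or of young fruiting bodies. Lenti6_1_615061 had 29.1, 1.60 and 112 TPM in FB_cap, against 15584, 3469 and 7348 TPM in FB_stipe (-7.70 ± 1.49, edgeR adjusted p = 0.0018). Lenti6_1_615060 had 94.1, 2.51 and 213 TPM in FB_cap, against 28011, 3443 and 10130 TPM in FB_stipe (-7.24 ± 1.38, edgeR adjusted p = 0.0016). Neither had a cap library near the lowest stipe library. Lenti6_1_609252, the lamellae model described above, had 78.9, 444 and 568 TPM in FB_cap, against 4.79, 46.6 and 22.3 TPM in FB_stipe (3.66 ± 0.78, edgeR adjusted p = 0.0038). Lenti6_1_612912, with 74.4% of its reads unique, had 386, 743 and 103 reads in FB_cap, against 0, 1 and 5 reads in FB_stipe (fitted log2 fold change 7.62 ± 2.28, edgeR adjusted p = 0.026). Both were higher in every cap library, as the choice of named models required. Lenti6_1_507963 was over the limit in FB_cap alone, with a mean of 20.9 TPM, against 15.1 TPM in FB_stipe, and was not tested.

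With flowcell as a covariate 1 of the 160 short models was called between FB_cap and FB_stipe, Lenti6_1_612912 turned to -3.44 (adjusted p = 0.81), and the log2 fold changes were 2.23 for Lenti6_1_609252 and -4.93 for Lenti6_1_615060, neither of them called, and -5.89 for Lenti6_1_615061, which was. The count of called short models was 12 without FB_cap replicate 2, with or without FB_lamellae replicate 1, 13 without FB_stipe replicate 3, 15 without FB_stipe replicate 4 and 9 with the spread taken from the 6 libraries alone, where Lenti6_1_609252 and Lenti6_1_615060 were not called (adjusted p = 0.081 and 0.062). The call of Lenti6_1_612912 was also lost without FB_cap replicate 2 or any 1 of the FB_stipe libraries (9.46 without FB_stipe replicate 3). Without FB_stipe replicate 4, Lenti6_1_615060 stood at -6.20 and Lenti6_1_615061 at -7.00. Without FB_cap replicate 3 they stood at -8.31 and -9.33. Lenti6_1_609252 stood at 4.56 without FB_stipe replicate 2.

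As the cap matured, FB_cap against YFB_cap, 20 of 160 short models were higher in FB_cap (12.5%) and 5 were lower (3.13%), and 15 of the 25 passed 4-fold. Over all genes 16.3% were called, 10.6% higher and 5.7% lower, which is near the shares of the short models. Short models had a median log2 fold change of 0.10, and all genes one of 0.11. Longer models counted by the same rule had 11.5% higher and 6.96% lower, with a median of 0.02. The FB_cap and YFB_cap libraries shared no flowcell, so stage and flowcell cannot be told apart from these libraries alone.

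Lenti6_1_605853 had 232, 827 and 910 TPM in FB_cap, against 43.2, 26.1 and 16.8 TPM in YFB_cap (4.81 ± 0.92, edgeR adjusted p = 0.0022). It was also high in mycelium, with 746, 908 and 686 TPM in VM. Lenti6_1_616241 had 1.25, 1.54 and 405 TPM in FB_cap, against 1.54, 0.868 and 1.32 TPM in YFB_cap (7.03 ± 1.53, edgeR adjusted p = 0.0046), and its TPM values overlapped. This rise lay in FB_cap replicate 3, without which the log2 fold change was 0.45 (adjusted p = 0.80). The abundant pair fell, with 29.1, 1.60 and 112 TPM of Lenti6_1_615061 in FB_cap, against 3323, 1886 and 1756 TPM in YFB_cap (-5.29 ± 1.34, edgeR adjusted p = 0.0094). Lenti6_1_615060 had 94.1, 2.51 and 213 TPM in FB_cap, against 2779, 2513 and 4127 TPM in YFB_cap (-4.62 ± 1.22, edgeR adjusted p = 0.012). Lenti6_1_507963, not tested here, had a mean of 20.9 TPM in FB_cap, against 3.80 TPM in YFB_cap. With flowcell as a covariate 2 short models were called and none of the 4 named as called (Lenti6_1_605853 at 4.30, adjusted p = 0.054, Lenti6_1_616241 at 4.60, Lenti6_1_615061 at -3.94 and Lenti6_1_615060 at -3.43). The count was 14 without FB_cap replicate 2, 16 without FB_cap replicate 2 and FB_lamellae replicate 1, and 11 without YFB_cap replicate 2 or 3. It was 9 with the spread taken from the 6 libraries alone, where neither model of the pair was called (edgeR adjusted p = 0.058 for Lenti6_1_615061 and 0.072 for Lenti6_1_615060). Without FB_cap replicate 3 the pair stood at -6.91 for Lenti6_1_615061 and -5.69 for Lenti6_1_615060.

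As the stipe matured, FB_stipe against YFB_stipe, 8 of 161 short models were higher in FB_stipe (4.97%) and 6 were lower (3.73%), and 5 of the 14 passed 4-fold. Over all genes 8.93% were called, 3.04% higher and 5.9% lower, so the total of 8.70% of short models was near the background. The median log2 fold change was 0.35 for the short models and -0.05 for all genes. Longer models counted by the same rule had 4.09% higher and 4.20% lower, with a median of 0.13, which lies closer to that of the short models. The skew by length was 0.45, 0.35 and 0.11 in FB_stipe replicates 4, 2 and 3, against -0.20, -0.16 and 0.42 in the YFB_stipe libraries, and its part in the median was not tested.

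The deepest fall among called short models whose libraries did not overlap was that of Lenti6_1_561202, the most abundant in most groups. It had 456, 245 and 908 TPM in FB_stipe, against 8023, 9306 and 21765 TPM in YFB_stipe (-4.48 ± 0.62, edgeR adjusted p = 0.00053). Lenti6_1_506676, highest in P1 and on the side of the stipe in young fruiting bodies, had 1.81, 13.4 and 1.17 TPM in FB_stipe, against 53.0, 50.9 and 154 TPM in YFB_stipe (-3.80 ± 1.04, edgeR adjusted p = 0.019). Models that had been on the side of the young cap rose. Lenti6_1_496359 had 392, 118 and 338 TPM in FB_stipe, against 42.1, 32.8 and 84.2 TPM in YFB_stipe (2.55 ± 0.60, edgeR adjusted p = 0.0096). Lenti6_1_506775 had 735, 302 and 729 TPM in FB_stipe, against 109, 98.6 and 244 TPM in YFB_stipe (2.10 ± 0.51, edgeR adjusted p = 0.011). In these 4 models the libraries did not overlap between the groups, which their choice required.

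With flowcell as a covariate 3 short models were called between FB_stipe and YFB_stipe, and among the named models Lenti6_1_506676 (-3.99, adjusted p = 0.051), Lenti6_1_496359 (1.90) and Lenti6_1_506775 (1.57) were not. The call of Lenti6_1_506676 was lost without FB_stipe replicate 3 or 4 or YFB_stipe replicate 3 (-3.33, -3.38 and -2.98), that of Lenti6_1_496359 without YFB_stipe replicate 1, and that of Lenti6_1_506775 without YFB_stipe replicate 1 or 2. Lenti6_1_506676 stood at -5.69 without FB_stipe replicate 2 and Lenti6_1_561202 at -5.07 without FB_stipe replicate 3, and without YFB_stipe replicate 3 the values were -3.80 for Lenti6_1_561202, 3.14 for Lenti6_1_496359 and 2.73 for Lenti6_1_506775. The count of called short models was 8 without FB_stipe replicate 3, 4, 7 and 23 without YFB_stipe replicates 1, 2 and 3, 22 without FB_cap replicate 2 and FB_lamellae replicate 1, 27 with the spread taken from the 6 libraries alone and 29 with DESeq2.

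Few short models were called between lamellae and cap of the mature fruiting body. In FB_lamellae against FB_cap, 0 of 159 short models were called higher in FB_lamellae by edgeR and 4 were lower (2.52%), 3 of them past 4-fold. At an unadjusted p under 0.05, 7 were higher and 21 lower, and DESeq2 called 0 higher and 4 lower. Over all genes 2.41% were called, 0.545% higher and 1.86% lower, close to the share of the short models. Short models had a median log2 fold change of -0.07, and all genes one of -0.01. Longer models counted by the same rule had 0.560% higher and 2.19% lower, with a median of 0.03. Lenti6_1_561202 had 273, 283 and 241 TPM in FB_lamellae, against 4401, 3514 and 1936 TPM in FB_cap (-3.86 ± 0.60, edgeR adjusted p = 0.0026). Lenti6_1_513931, with 34.3% of its reads unique, had 16.0, 9.87 and 5.85 TPM in FB_lamellae, against 14.9, 55.3 and 16.2 TPM in FB_cap (-1.61 ± 0.44, edgeR adjusted p = 0.049), and its TPM values overlapped. Its call was lost without FB_cap replicate 2, where the log2 fold change was -0.77, without FB_lamellae replicate 2 or 3, with uniquely mapped reads (-1.22), with the size factors of DESeq2 and with no filter on low counts (adjusted p = 0.051 in both). Lenti6_1_507963 and Lenti6_1_510043, not tested here, had means of 6.85 and 20.1 TPM in FB_lamellae, against 20.9 and 12.3 TPM in FB_cap. With the spread taken from the 6 libraries alone edgeR called 0 short models, and without FB_lamellae replicate 3 the count was 1. Without FB_lamellae replicate 1, or without FB_cap replicate 2 as well, 1 short model was called higher in lamellae.

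The contrast of cap with stipe was itself compared between stages by an interaction term, a test added after the data were seen. Between fruiting bodies and young fruiting bodies it changed in 40 of 159 short models (25.2%), toward the cap in 21 and toward the stipe in 19, with 27.3% of all genes called, a share close to that of the short models. A fit with flowcell as a covariate called 8. Lenti6_1_496359 and Lenti6_1_506775 were not called between cap and stipe of mature fruiting bodies and were higher in the cap of young ones. Lenti6_1_561202 was higher in the cap than in the stipe of mature fruiting bodies (2.44, edgeR adjusted p = 0.0065) and lower in the cap of young ones (-2.51, edgeR adjusted p = 0.0034). Between young fruiting bodies and stage 2 primordia 0 of 159 short models were called by edgeR, 13 had an unadjusted p under 0.05, and 0.00737% of all genes were called.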

How the data were processed

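The authors deposited 1 table per library with the gene length in bases, the count of all reads and of uniquely mapped reads per gene model, and TPM, per the file headers, and 1 table of log2 RPKM values over 27 libraries for 13805 genes, which holds all 161 short models. Deposited TPM equalled counts divided by the full model length and scaled per library (largest difference 3.5e-10), so no correction for fragment length was applied, and the deposited log2 values carry a further factor per library (-0.27 to 0.24). The tools listed, per the submitters' processing notes, are limma 3.18.13, R 3.0.2 and edgeR 3.4.2. Aligner and genome build: not given in the sources used here.

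Libraries were grouped by their titles. Counts of all reads were filtered with filterByExpr at a minimum count of 10 (13569 genes left), scaled by TMM and fitted with 9 group means by the quasi-likelihood method of edgeR 4.0.16 in R 4.3.3 (18 residual degrees of freedom, common coefficient of biological variation 0.343), with two-sided p-values adjusted by Benjamini-Hochberg over all genes. DESeq2 1.42.0 was an alternative. The code was tested on simulated data. Read depth was 10.84 to 31.82 M reads per library, and the exact binomial 95% intervals cover counting error only. Libraries of a group always differed by more than sampling noise (chi-square per degree of freedom 42.9 to 339 within groups). The labels call the libraries of a group biological replicates.

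The short models, their limits and the tests were chosen with earlier results of these data known. Per comparison, the named models are, of the called short models, the 2 that rose most and the 2 that fell most among those that reach 20 TPM in a group outside the comparison and whose libraries of the 2 groups do not overlap in TMM-scaled CPM. Per group, the models with the highest mean among those highest there were eligible, together with the steadiest broad models, those at the limits, and examples of the 13 models whose 3 highest libraries lay in 1 group, which were chosen after their values were seen. Replicate numbers were taken to pair libraries where at least 3 numbers were shared and the deviations from the group means of every same-numbered pair correlated at over 0.1, which held only for YFB_cap with YFB_stipe (3 correlations, 0.242 to 0.389, over the genes tested), where the number as a block left the count at 25 short models. Alternatives were the size factors of DESeq2, no filter, uniquely mapped reads, a replicate block, flowcell as a covariate, the 6 libraries of a comparison alone, other limits of TPM and length, other scalings, and each library left out in turn.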

Additional observations from a re-analysis of the deposited data

Results flagged for a closer look

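For 12 of the named short models the contrast of cap with stipe differed between fruiting bodies and young fruiting bodies by the interaction term in edgeR (Benjamini-Hochberg adjusted over 13569 genes, 3 libraries per group). Models were named in part for large changes in comparisons of the same groups, so this count is not independent support. Of all 159 short models tested 40 were called (25.2%), against 27.3% of all genes. Values are the log2 contrast in fruiting bodies minus that in young fruiting bodies, and means are TPM. With flowcell as a covariate, a fit that takes nothing about FB_stipe from replicate 4, 8 short models were called for this term in all, against 40 without it.

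In 7 models the contrast moved toward the cap in the mature fruiting body. The widest was Lenti6_1_506676 at 7.22 ± 1.56 (SE, adjusted p = 0.0025), with means of 13.7 TPM in FB_cap and 5.46 TPM in FB_stipe, and 1.55 TPM in YFB_cap and 86.0 TPM in YFB_stipe. It had few reads in most of these libraries, with 4, 14 and 108 in FB_cap and 3, 4 and 7 in YFB_cap. FB_stipe replicates 4, 2 and 3 had 5, 37 and 3 reads of it, and its mean in FB_cap lay mostly in replicate 3. Lenti6_1_616241 stood at 6.09 ± 1.99 (adjusted p = 0.025), and its mean of 136 TPM in FB_cap lay in 1 library. Lenti6_1_561202 stood at 4.95 ± 0.80 (adjusted p = 0.00049), with 3284 TPM in FB_cap and 536 TPM in FB_stipe, and 2943 TPM in YFB_cap and 13032 TPM in YFB_stipe. The values of the other 4 were 3.93 for Lenti6_1_617012, 3.61 for Lenti6_1_605853, 1.94 for Lenti6_1_611231 and 1.70 for Lenti6_1_494726, at adjusted p-values of 0.012 to 0.032.

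In 5 models the contrast moved toward the stipe. The abundant pair stood at -6.50 ± 1.72 for Lenti6_1_615061 and -5.93 ± 1.60 for Lenti6_1_615060 (adjusted p = 0.0080 and 0.0090). Lenti6_1_496359 stood at -4.38 ± 0.84 (adjusted p = 0.0012), with 137 TPM in FB_cap and 283 TPM in FB_stipe, and 596 TPM in YFB_cap and 53.0 TPM in YFB_stipe. Lenti6_1_506775 stood at -3.51 ± 0.71 (adjusted p = 0.0018), with 366 TPM in FB_cap and 589 TPM in FB_stipe, and 1186 TPM in YFB_cap and 150 TPM in YFB_stipe. Lenti6_1_607415 stood at -2.13 ± 0.56 (adjusted p = 0.0075), with 552 TPM in FB_cap and 1080 TPM in FB_stipe, and 1335 TPM in YFB_cap and 543 TPM in YFB_stipe.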

How the results depend on the processing

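With flowcell as a covariate the short models called were 16 for P1 against VM, 1 for FB_cap against FB_stipe, 2 for FB_cap against YFB_cap, 3 for FB_stipe against YFB_stipe, 2 for FB_lamellae against FB_cap and 8 for the interaction. With the 6 libraries of a comparison alone they were 19 for P2_cap against P2_stipe, 9 for FB_cap against FB_stipe, 9 for FB_cap against YFB_cap, 27 for FB_stipe against YFB_stipe and 0 for FB_lamellae against FB_cap. DESeq2 called 15 for P2_cap against P2_stipe and 29 for FB_stipe against YFB_stipe. Without FB_cap replicate 2 and FB_lamellae replicate 1, chosen after the data were seen, the counts were 12 for FB_cap against FB_stipe, 16 for FB_cap against YFB_cap and 22 for FB_stipe against YFB_stipe. Replicate numbers meet the rule for pairing only for YFB_cap with YFB_stipe (for FB_stipe with YFB_stipe only 2 numbers are shared, at correlations of 0.223 and 0.115), and with the replicate block the counts were 13 for FB_cap against FB_stipe, 7 for FB_stipe against YFB_stipe, where Lenti6_1_506676 was lost, and 2 for FB_lamellae against FB_cap. The block also ended the calls of Lenti6_1_612912 (adjusted p = 0.16) and Lenti6_1_513931 (0.088). It changed no other count of a comparison by over 1.5 times. The fold change of Lenti6_1_612912 between FB_cap and FB_stipe turned to -3.44 with flowcell as a covariate. The cause was not tested in any of these. FB_cap shared no flowcell with FB_stipe or YFB_cap, so between these groups flowcell cannot be told apart from tissue or stage.

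Leaving out 1 library at a time gave ranges of 16 to 39 called short models for P1 against VM, 17 to 32 for P2_cap against P1 (36 without FB_cap replicate 2 and FB_lamellae replicate 1), 3 to 6 for P2_cap against P2_stipe, 13 to 28 for YFB_cap against YFB_stipe, 12 to 24 for FB_cap against FB_stipe, 11 to 29 for FB_cap against YFB_cap, 4 to 23 for FB_stipe against YFB_stipe, 1 to 6 for FB_lamellae against FB_cap and 30 to 50 for the interaction.

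The share of short models highest in P2_cap was 15.5% by TMM-scaled counts and by the authors' log2 matrix, and that in FB_stipe was 23.6% and 24.8%. With a length limit of 300 bases VM held 14.7%, with a TPM limit of 50 P2_stipe held 0%, and with medians of libraries FB_cap held 2.47%, against 3.44% of longer models. Leaving out 1 library at a time, the shares ranged over 19.1 to 28.7% for VM, 7.32 to 9.88% for P1, 16.8 to 28.4% for P2_cap, 0 to 2.48% for P2_stipe, 9.94 to 23.0% for YFB_cap, 2.48 to 6.21% for YFB_stipe, 5 to 10.5% for FB_cap, 6.83 to 11.1% for FB_stipe and 9.15 to 13.8% for FB_lamellae. Of the recomputed counts and shares, 398 stayed close to the reported value and 53 moved further. Of the 484 short models under the TPM limit, 235 had no read in any library and were not detectable at this depth, while others lay just under the limit.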
